A study of Rattus norvegicus with 6 samples.

Results

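A group of 8 testis miRNAs was examined in primary sertoli cells treated with 4-nonylphenol (4-NP). They are rno-miR-871, rno-miR-880, rno-miR-881, rno-miR-883, rno-miR-741, rno-miR-463, rno-miR-471 and rno-miR-3580. Their genes lie on the rat X chromosome in a run of miRNA genes that also holds others. Both arms of each hairpin were taken by name from the mature miRNAs counted in the study, which gave 16 of 734 counted arms. The members were chosen by the fall of several of them after 4-NP in these same counts. Their difference between the groups is therefore a description here, and no test of it is given.

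Sertoli cells were isolated from the testes of Sprague-Dawley rats 5 to 10 days old, cultured in medium with serum and used at passage 2. The 3 control samples received 0 mM and the 3 4-NP samples 0.5 mM of 4-NP, an alkylphenol with estrogen-like action, for 24 h. RNA of 18 to 30 nt was cut from a gel, sequenced and counted, with 22291892 to 23426742 reads on mature miRNAs in control and 20023200 to 22130929 in 4-NP samples. The labels do not say whether the samples came from separate animals or cultures, so the spread between them may be technical.

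A miRNA gene is transcribed into a longer RNA that folds into a hairpin. Drosha and Dicer cut from it a short duplex, of which either the 5p or the 3p arm is loaded into an Argonaute protein. The loaded arm finds its target mRNAs mainly through its seed, bases 2 to 8 from the 5′ end. The X-linked family to which these 8 hairpins belong is known for preferential expression in the testis, in sertoli cells and male germ cells, and for rapid change in sequence and copy number between species.

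The mature sequences of the arms in RefSeq are shown because the seeds tell these related arms apart. Capitals mark the seed, and the arms are ordered by hairpin.

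rno-miR-871-5p: uAUUCAGAuuggugccggucacau
rno-miR-871-3p: uGACUGGCaccauacuggauaa
rno-miR-880-5p: uACUCAGAuugguaugaguca
rno-miR-880-3p: uACUCCAUucauucugaguaga
rno-miR-881-3p: uAACUGUGgcauuucugaauag
rno-miR-883-5p: uGCUGAGAgaaguagcaguuacu
rno-miR-883-3p: uAACUGCAacaucucucaguau
rno-miR-741-5p: uACAUAGAuugguaccuauca
rno-miR-741-3p: aAAGAUGCcacgcuauguagau
rno-miR-463-5p: uACCUAAUuuguuguccauca
rno-miR-463-3p: uGAUAGACgccaauuuggguag
rno-miR-471-5p: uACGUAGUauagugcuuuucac
rno-miR-471-3p: uGAAAGGUgccauacuaugu
rno-miR-3580-5p: uGCUUGUAcuuauucuggugac
rno-miR-3580-3p: uGACUAGGguaguaugaguaga

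These 15 arms were 20 to 24 nt long and carried 15 different seeds. The remaining arm, rno-miR-881-5p, was not compared. A 5′ U opened 14 of the 15, where 36.2% of the 693 RefSeq mature miRNAs of the rat begin with U. Only rno-miR-741-3p began with A. In global alignments the 28 pairs of member hairpins were 48.0 to 70.9% identical (median 55.5%), the closest pair being rno-miR-881 and rno-miR-883.

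Added over both arms of all 8 hairpins, the members had 13006, 16148 and 15640 reads in control samples 1, 2 and 3, and 1499, 1703 and 1840 reads in 4-NP samples 1, 2 and 3. Scaled to the mature miRNA reads of each sample, this was a mean of 652 ± 83.8 CPM (counts scaled to a sum of 1000000 mature counts) in control cells, against 78.9 ± 9.72 CPM in treated cells (SD, n = 3 each). The treated samples thus held 12.1% of the control level, with no overlap between the groups. Even in the controls the 8 miRNAs were a small part of the library, at 0.0555 to 0.0702% of mature reads, whereas miR-21-5p alone took 62.0 to 63.9% across all samples. Without rno-miR-741-3p, the most abundant arm, 10.1% of the control level was left. In such bulk samples, fewer cells of a type and less RNA per cell cannot be told apart.

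rno-miR-741-3p was the most abundant arm, with 63.5 to 67.8% of the members' reads in control cells and 66.0 to 74.4% after 4-NP. It had 8260, 10922 and 10598 reads in control cells and 989, 1266 and 1369 reads after 4-NP. Its level went from 434 ± 70.2 to 56.8 ± 10.5 CPM (SD, n = 3 each), so that the lowest control lay several-fold above the highest treated sample. The opposite arm, rno-miR-741-5p, had 9, 11 and 2 reads against 2, 0 and 0, and its groups overlapped.

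rno-miR-871-5p came second. Its reads were 2162, 2562 and 2286 in the controls and 185, 169 and 167 after 4-NP. The samples of each group were close together, at 102 ± 9.33 CPM against 8.14 ± 0.448 CPM (SD, n = 3 each). The 3p arm of the same hairpin was far less even. rno-miR-871-3p had 435, 67 and 563 reads in control cells and 2, 4 and 34 in treated cells, so control sample 2 stood well below the other controls and 4-NP sample 3 above the other treated samples. The groups did not overlap, although the controls had a coefficient of variation of 73.7% where counting alone gives 5.31%.

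rno-miR-880-3p was even in the controls, with 269, 291 and 260 reads, and had 21, 0 and 1 reads after 4-NP. Almost all of what remained was therefore in 4-NP sample 1, and the mean of 0.332 CPM was 2.78% of the control mean of 11.9 CPM. A count of 0 in 4-NP sample 2 allows up to 3 reads, or 0.150 CPM, a limit that covers counting error only. rno-miR-880-5p had 0, 4 and 1 reads in control cells and none after 4-NP, at or near the limit of detection in each sample.

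rno-miR-883-5p had 177, 263 and 240 reads in control cells and 14, 16 and 10 in treated cells, or 9.90 ± 2.06 against 0.629 ± 0.171 CPM (SD, n = 3 each). The treated samples were alike and held 6.36% of the control level. Its rno-miR-883-3p arm had 7, 4 and 1 reads in control cells and none in the treated samples. No fold change is given for so few reads.

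Both arms of rno-miR-881 were measured. rno-miR-881-3p had 102, 105 and 105 reads in control cells and 10, 10 and 11 in treated cells, which was less spread in each group than counting error alone would give. rno-miR-881-5p had 37, 47 and 40 reads against 2, 3 and 8. These arms kept 10.7% and 11.2% of their control levels.

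rno-miR-3580-3p had 118, 116 and 122 reads in control cells and 13, 14 and 5 in treated cells, which left 9.75% of the control level. 4-NP sample 3 was the lowest of the treated samples, and none came near the controls. rno-miR-3580-5p was low throughout, with 8, 10 and 13 reads against 2, 0 and 1.

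The arms of rno-miR-463 moved by different amounts. rno-miR-463-5p had 512, 966 and 566 reads in control cells and 67, 75 and 83 in treated cells, and 11.9% of its level was left. Control sample 2 was the highest for this arm. rno-miR-463-3p had 135, 119 and 139 reads against 40, 37 and 28, and kept 28.8%.

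The arms of rno-miR-471, a miRNA that has been studied in sertoli cells of mice, moved even further apart. rno-miR-471-5p had 529, 430 and 495 reads in control cells and 54, 38 and 47 in treated cells, or 21.1 ± 2.19 against 2.16 ± 0.271 CPM (SD, n = 3 each). rno-miR-471-3p had 246, 231 and 209 reads against 98, 71 and 76, or 9.96 ± 0.564 against 3.82 ± 0.532 CPM (SD, n = 3 each). The 3p arm was thus the member that kept most of its level, 38.3%, and the groups of both arms were separate.

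**Figure D1:**
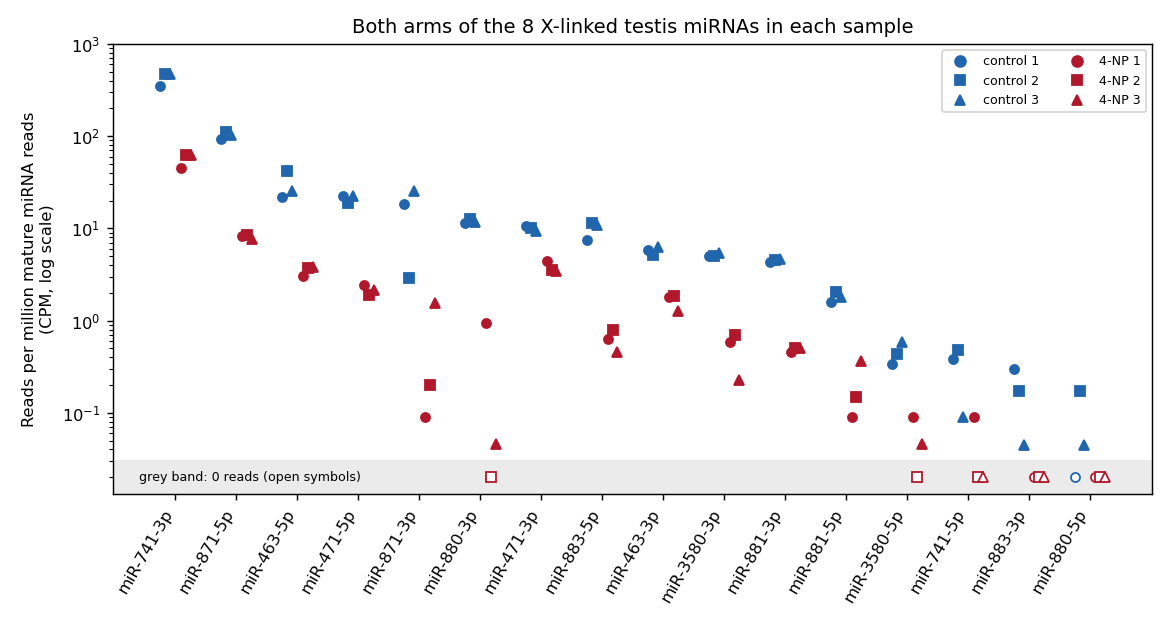
CPM (log scale) of each arm in each of the 6 samples, with controls in blue and 4-NP samples in red, ordered by the control mean; open symbols in the grey band have 0 reads. The red symbols lie below the blue ones for all arms but rno-miR-741-5p and rno-miR-880-5p, from 434 CPM in the controls for rno-miR-741-3p down to single reads.

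The order of the control means ran from rno-miR-741-3p through rno-miR-871-5p, rno-miR-463-5p, rno-miR-471-5p, rno-miR-871-3p, rno-miR-880-3p, rno-miR-471-3p, rno-miR-883-5p, rno-miR-463-3p, rno-miR-3580-3p and rno-miR-881-3p to rno-miR-881-5p, with the 4 arms of few reads below. The first 2 arms were separated from each other and from the rest in every control sample. Neighbours whose control samples overlapped were rno-miR-463-5p and rno-miR-471-5p, rno-miR-471-5p and rno-miR-871-3p, rno-miR-871-3p and rno-miR-880-3p, rno-miR-471-3p and rno-miR-883-5p, and rno-miR-463-3p and rno-miR-3580-3p. Levels of different miRNAs also depend on how well each end is ligated, which was not measured.

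edgeR's quasi-likelihood model, fitted with TMM scaling on all mature miRNAs that passed its filter on low counts (549), put these differences on a common scale. Of the 16 arms, 12 passed that filter. The others were rno-miR-741-5p, rno-miR-880-5p, rno-miR-883-3p and rno-miR-3580-5p. All 12 lay lower after 4-NP without overlap between the groups, as did 22.6% of the tested miRNAs. Other miRNAs were called lower or higher at an adjusted p under 0.05, and 12.8% of the tested miRNAs were called lower. The members were chosen by this contrast, and some passed the filter only through their control counts. No calls are therefore given for them, and nothing is read from their lack of overlap. The 12 log2 fold changes ran from -5.16 to -1.41 with a median of -3.27, and the median of all tested miRNAs was -0.02.

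The smallest standard error was that of rno-miR-871-5p, with a log2 fold change of -3.66 (SE 0.13). The fall of rno-miR-471-3p was the shallowest at -1.41 (SE 0.15), and that of rno-miR-463-3p was -1.83 (SE 0.21). Their 5p partners had values of -3.32 (SE 0.20) for rno-miR-471-5p and -3.07 (SE 0.25) for rno-miR-463-5p. rno-miR-741-3p, rno-miR-881-3p and rno-miR-883-5p had -2.94 (SE 0.23), -3.23 (SE 0.20) and -3.99 (SE 0.26).

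The steepest fitted falls were also the least certain. rno-miR-880-3p was fitted at -5.16 (SE 0.96), and without 4-NP sample 1, which held nearly all its treated reads, the fitted value was -8.64. rno-miR-871-3p was fitted at -4.68 (SE 1.21), and -6.78 without 4-NP sample 3. rno-miR-881-5p went from -3.12 (SE 0.48) to -3.90 without that same sample. With both arms of a hairpin added before the fit, the log2 fold changes were -5.12 (SE 0.95) for rno-miR-880, -3.96 (SE 0.25) for rno-miR-883 and -3.72 (SE 0.15) for rno-miR-871. They were -3.33 (SE 0.32) for rno-miR-3580, -3.16 (SE 0.24) for rno-miR-881, -2.89 (SE 0.22) for rno-miR-741, -2.73 (SE 0.21) for rno-miR-463 and -2.36 (SE 0.15) for rno-miR-471.

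The share of reads on the 5p arm is a ratio within one hairpin and does not depend on library scaling. In the controls, 4 hairpins gave more 5p reads (rno-miR-871, rno-miR-883, rno-miR-463 and rno-miR-471) and 4 gave more 3p reads (rno-miR-741, rno-miR-880, rno-miR-881 and rno-miR-3580). After 4-NP, rno-miR-471 had joined the latter. The hairpins of the pair whose arms moved apart are shown with the mature arms in capitals, the 5p arm first; both are on the minus strand of chromosome X in GRCr8.

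rno-miR-471: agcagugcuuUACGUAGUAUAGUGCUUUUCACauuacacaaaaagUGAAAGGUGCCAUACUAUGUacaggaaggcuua
rno-miR-463: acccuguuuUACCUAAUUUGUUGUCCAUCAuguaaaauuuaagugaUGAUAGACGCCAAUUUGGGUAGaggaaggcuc

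For rno-miR-471 the 5p share was 68.3% (95% Wilson interval 64.9 to 71.4%), 65.1% (61.3 to 68.6%) and 70.3% (66.8 to 73.6%) in control samples 1, 2 and 3. It was 35.5% (28.4 to 43.4%), 34.9% (26.6 to 44.2%) and 38.2% (30.1 to 47.0%) in 4-NP samples 1, 2 and 3. The 3 samples of a group were alike, and the mean difference was -31.7 percentage points, between -33.1 and -30.5 when any 1 sample was left out. These intervals cover counting error only.

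For rno-miR-463 the 5p share was 79.1%, 89.0% and 80.3% in the controls and 62.6%, 67.0% and 74.8% after 4-NP. The groups were separate, with a mean difference of -14.7 percentage points, but the interval of 4-NP sample 3 (66.0 to 81.9%) reached into those of control samples 1 and 3.

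rno-miR-871 did not part by treatment. Its 5p share was 83.2%, 97.5% and 80.2% in the controls and 98.9%, 97.7% and 83.1% after 4-NP. High and low shares occurred in both groups, since the 3p arm was low in control sample 2 and in 4-NP samples 1 and 2. For rno-miR-881 the share was 26.6 to 30.9% in the controls and 16.7 to 42.1% after 4-NP, from 12 to 19 reads per treated sample, too few for a difference to be detectable. rno-miR-741 and rno-miR-880 remained 3p hairpins, with a 5p share of at most 0.202% and 1.36% in any sample with reads, and rno-miR-883 remained a 5p hairpin at 96.2% or more.

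**Figure D2:**
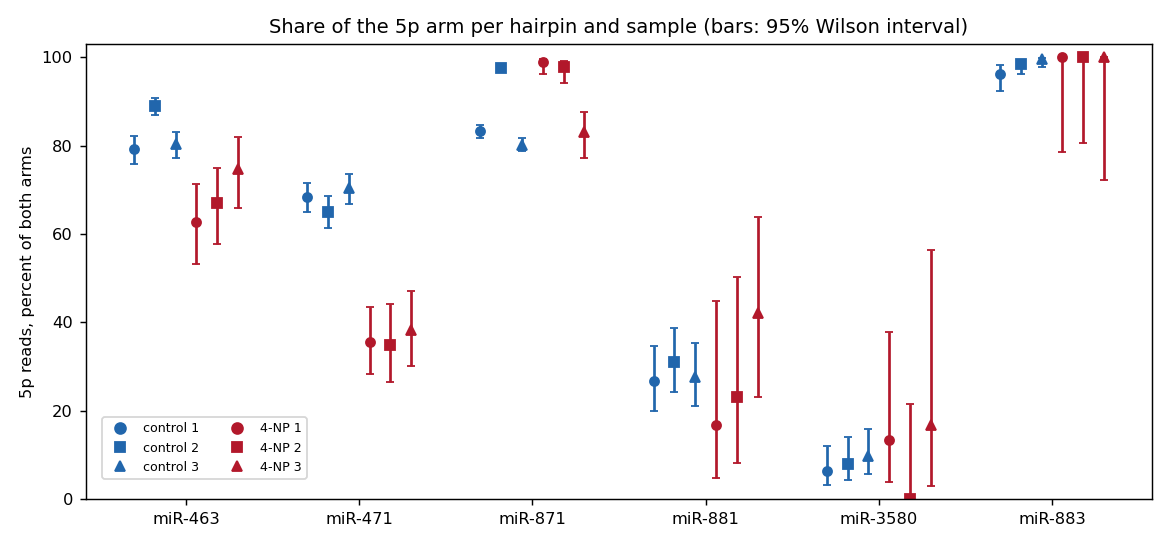
Percent of a hairpin's reads that lay on the 5p arm in each of the 6 samples, for all hairpins but rno-miR-741 and rno-miR-880. Bars are 95% Wilson intervals. The minor arms of rno-miR-883 and rno-miR-3580 had few or no reads after 4-NP. For rno-miR-471 the controls sit at 65.1 to 70.3% and the 4-NP samples at 34.9 to 38.2%, while for rno-miR-871 the groups overlap.

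Among the 12 arms with a mean of at least 20 reads, 10 kept less than 15% of their control level, the exceptions being rno-miR-463-3p and rno-miR-471-3p. No library was consistently the high or low one: control sample 1 was the lowest control for 7 of the 12 arms and the highest for 2, and 4-NP sample 2 was the highest treated sample for 5 and the lowest for 2.

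All 8 genes lie in 1 unbroken run of 14 miRNA genes on chromosome X in the GRCr8 gene table, interrupted by no protein-coding gene. In coordinate order the run is Mir743a, Mir743b, Mir742, Mir883, Mir471, Mir3551, Mir741, Mir463, Mir880, Mir878, Mir881, Mir871, Mir3580 and Mir465. The build behind the deposited counts is not given in the sources used here, so no coordinates are printed. Mir742 to Mir741 lie inside the annotated lncRNA gene LOC120099202. Mir880 to Mir465 lie inside LOC108349259, whose end Mir463 overlaps. The tables used here do not say whether these positions are exonic or intronic.

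The 6 genes of the run that are no members gave 11 counted arms, a set put together after the values were seen. Together they had 25.4 to 36.4 CPM in control and 3.70 to 5.66 CPM in treated cells, so this group too was separate in every sample. rno-miR-465-3p had 220, 214 and 126 reads in control cells and 31, 33 and 43 in treated cells, a log2 fold change of -2.28 (SE 0.26). rno-miR-742-3p had 120, 262 and 96 reads against 12, 17 and 18, a log2 fold change of -3.20 (SE 0.41).

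rno-miR-743a-3p was erratic in the controls, with 4, 97 and 109 reads against 9, 6 and 10, and its groups overlapped. So did those of rno-miR-743b-5p, with 56, 0 and 46 reads against 4, 1 and 3. rno-miR-743b-3p had 28, 15 and 20 reads against 1, 4 and 10, without overlap, but was not called. Of the arms with few reads, rno-miR-878 had 57, 79 and 10 reads in control cells and 4, 3 and 4 in treated cells. rno-miR-3551-5p had 6, 8 and 9 reads against 0, 1 and 0.

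X-linked relatives that lie outside this run were also counted. Of a list of other names of this testis family, which held neighbours in the run and genes outside it, 12 arms were tested. Of these, 4 were called lower (rno-miR-465-3p, rno-miR-742-3p, rno-miR-742-5p and rno-miR-743a-5p) and 0 higher with edgeR (0 at an unadjusted p under 0.05, and 0 higher with DESeq2), where 12.8% of all tested miRNAs were called lower and 7.47% higher. The median log2 fold change of the list was -1.02. rno-miR-742-5p was not called without 4-NP sample 3.

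The list fell into separate parts by position, a split made after the values were seen. rno-miR-547-3p, the most abundant, stood at 311 ± 134 CPM in control and 390 ± 72.1 CPM in treated cells (SD, n = 3 each), with 0.26 (SE 0.39) as its log2 fold change. rno-miR-509-5p stood at 66.3 ± 7.26 and 72.4 ± 2.56 CPM (SD, n = 3 each), with 0.10 (SE 0.17). For rno-miR-201-5p the fold change was 0.23 (SE 0.48) on the same scale, from 3459, 1333 and 2357 reads against 3069, 1369 and 3697. None of the 6 arms of rno-miR-201, rno-miR-509 and rno-miR-547 was called by edgeR in either direction, 0 had an unadjusted p under 0.05, and DESeq2 called 0. Their summed level was 302 CPM in control sample 2 and 609 to 623 CPM in the other controls, against 538 to 720 CPM after 4-NP.

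**Figure D3:**
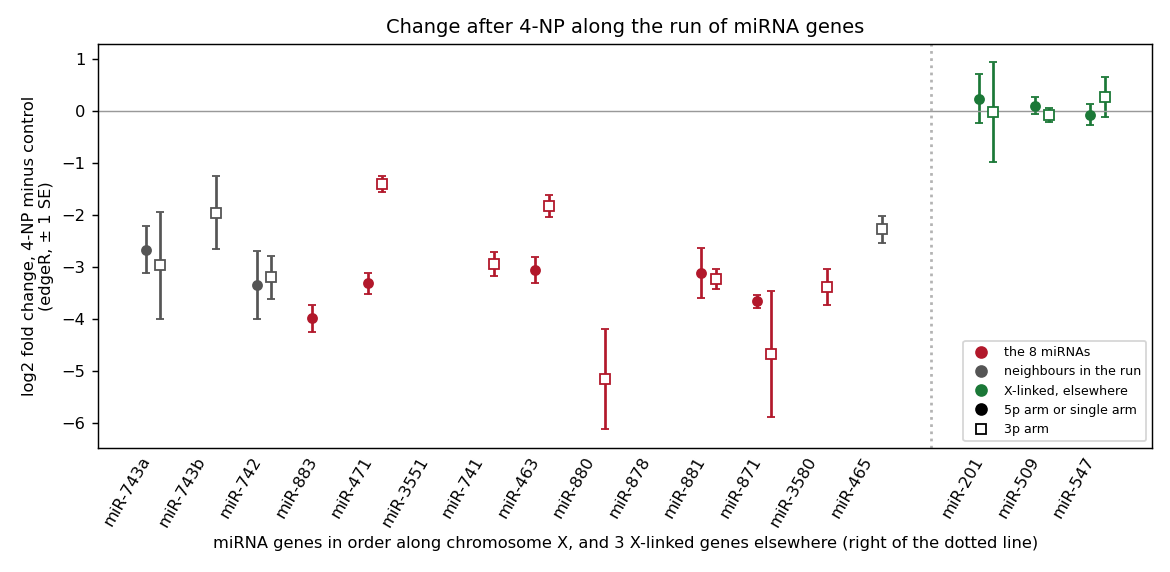
log2 fold change (4-NP minus control, edgeR, bars of 1 SE) of each tested arm, with genes in order along chromosome X and 3 X-linked genes from elsewhere at the right; arms that did not pass the filter on low counts are not drawn. All tested arms of the run lie between -5.16 and -1.41, and the 6 arms at the right lie between -0.07 and 0.26.

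The remaining X-linked miRNAs gave 53 tested arms with a median log2 fold change of 0.01. Of these, 5 were called lower (rno-miR-503-5p, rno-miR-322-5p, rno-miR-351-5p, rno-miR-450b-3p and rno-miR-450b-5p) and 3 higher (rno-miR-361-5p, rno-miR-384-3p and rno-miR-500-3p), where 12.8% and 7.47% of all tested miRNAs were called lower and higher. The 5 lower arms belong to the miR-322, miR-503 and miR-450 cluster, and were named after their values were seen. Their log2 fold changes ran from -2.41 for rno-miR-503-5p to -0.56 for rno-miR-450b-5p. Without control sample 1, 4-NP sample 1 or 4-NP sample 2, 3 were called lower. Across the 6 fits that left out 1 sample, rno-miR-503-5p, rno-miR-322-5p and rno-miR-351-5p kept their calls in every one, whereas rno-miR-450b-3p lost its call in 5 and rno-miR-450b-5p in 3. Of the 3 arms called higher, rno-miR-384-3p lost its call in all 6 fits, and rno-miR-361-5p and rno-miR-500-3p in 4 each, those without control sample 1 or 2 or 4-NP sample 1 or 3.

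The miRNAs whose profile over the 6 samples was most like that of the summed members were sought among 477 other miRNAs with a mean of at least 20 reads. Likeness was the root mean square difference of log2(CPM + 1), each profile centred on its control mean. The 5 closest were rno-miR-503-5p (0.55), rno-miR-154-3p (0.59), rno-miR-742-3p (0.75), rno-miR-665 (0.87) and rno-miR-743a-5p (0.88). rno-miR-503-5p had 2216, 2339 and 2288 reads in control cells and 470, 286 and 468 in treated cells. rno-miR-154-3p had 416, 452 and 463 reads against 77, 64 and 74. Of the 5, 2 were neighbours from the same run. This measure follows the abundant rno-miR-741-3p, which differed from the sum by 0.10, whereas rno-miR-471-3p differed from it by 1.32. Adding 1 CPM also shrinks falls that end near or below 1 CPM, so the ranking depends on abundance. rno-miR-503-5p kept 19.1% of its control level and rno-miR-742-3p 10.7%, where the summed members kept 12.1%.

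Of the 15 member arms compared, 2 shared a seed with another miRNA. rno-miR-871-5p shared it with its neighbour rno-miR-743a-5p, and the pair is shown again because they are alike well beyond the seed.

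rno-miR-871-5p: uAUUCAGAuuggugccggucacau
rno-miR-743a-5p: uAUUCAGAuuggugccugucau

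They were 87.5% identical, the highest value between a member arm and any other RefSeq mature miRNA of the rat, where the other compared arms reached at most 78.3%. How the counting treated reads that fit both is not given in the sources used here, so their separate counts are uncertain to that extent. rno-miR-743a-5p had 183, 129 and 120 reads in control cells and 21, 9 and 34 in treated cells, a log2 fold change of -2.67 (SE 0.45). Both lay lower in every treated sample. rno-miR-741-5p shared its seed with rno-miR-376c-3p, a miRNA of the Dlk1-Dio3 region, which stood at 65.9 ± 9.15 CPM in control and 63.8 ± 11.8 CPM in treated cells (SD, n = 3 each), its log2 fold change being -0.08 (SE 0.18). In both groups that seed was thus carried almost wholly by rno-miR-376c-3p, since rno-miR-741-5p stayed under 0.5 CPM.

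Reads assigned to hairpin precursors were listed apart, for 2 of the 8. Those assigned to the mir-463 precursor were 15, 25 and 13 in control cells and 2, 2 and 1 in treated cells. For the mir-471 precursor they were 4, 6 and 1 reads against 0, 1 and 1, which is near the limit of 3 reads. The RNA was cut from the gel at a size below that of either whole hairpin. These are therefore reads of short RNA, and the level of the precursors themselves was not measured. The reads assigned to the mir-463 precursor were separate between the groups in the same direction as the mature arms of rno-miR-463, within the same contrast.

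Marker miRNAs of the labelled cell type were present. rno-miR-202-5p, a gonadal miRNA of sertoli cells, stood at 1026 ± 200.3 CPM in control and 746 ± 46.7 CPM in treated cells (SD, n = 3 each), and the 4 arms of miR-202 and miR-140 together had 1382 to 1897 against 1213 to 1404 CPM. None of the 4 was called by edgeR or DESeq2, and 1 had an unadjusted p under 0.05 with each.

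Lists for other cells moved with the members in part. The 10 counted arms of the spermatogonial list, made of the miR-290 to miR-295 cluster of early germ and pluripotent cells, had 3.14 to 5.08 CPM in all in control and 1.15 to 1.58 CPM in treated cells. Of these, 2 were tested and 1, rno-miR-292-3p, was called lower (12.8% over all tested miRNAs), from 22, 15 and 15 to 4, 1 and 5 reads. It kept its call when 4-NP sample 3 was left out and lost it without any other single sample, and DESeq2 called 0 arms of this list, as did the fit with a replicate block (2 at an unadjusted p under 0.05 in each). rno-miR-291a-5p had 10, 4 and 8 reads in control cells and 0 in all treated samples. rno-miR-290 and rno-miR-294 were also at 0 in all treated samples, but had only 1, 0 and 3 and 0, 1 and 0 reads in control cells. The groups of these 2 arms overlapped, as did those of rno-miR-293-3p, rno-miR-293-5p and rno-miR-295-3p. The other arms of the list lay lower without overlap, most of them from few reads. The spermatocyte list was divided. Of its 5 tested arms, the 4 of miR-34b and miR-34c were called higher, where 7.47% of all tested miRNAs were. rno-miR-34c-5p lost its call without control sample 2 or any 1 of the 4-NP samples. The remaining tested arm, rno-miR-449a-5p, was the most abundant of the list and was not called. It stood at 114 to 129 CPM in control and 92.4 to 119 CPM in treated cells (log2 fold change -0.25, SE 0.14). The sum of the list was 149.7 to 167 against 162 to 197 CPM. The part of germ cells in the members' fall was not tested.

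The 2 tested endothelial arms, both of miR-126a, were called lower, as were 12.8% of all tested miRNAs, with 6325 to 7615 CPM in all in control and 3234 to 3805 CPM in treated cells. The erythroid list, led by rno-miR-451-5p, stood at 11.0 to 40.7 CPM in control and 59.3 to 631 CPM in treated cells, and rno-miR-451-5p, 1 of its 2 tested arms, was called higher (7.47% over all tested miRNAs), though not without control sample 1 or 2 or 4-NP sample 2 or 3. The smooth muscle or myoid list, led by rno-miR-143-3p, stood at 120596 to 136273 CPM in control and 88389 to 96697 CPM in treated cells. It had 2 of 4 tested arms called lower, against the same 12.8%, and a median log2 fold change of -0.58. No arm of the myeloid list (3 tested), the striated muscle list (4 tested) or the liver list (1 tested) was called by edgeR, with 1 at an unadjusted p under 0.05, rno-miR-122-5p, which DESeq2 called higher. rno-miR-122-5p of liver had 434 reads in 4-NP sample 2 and at most 31 in any other sample. Without that sample the median log2 fold change of the 12 tested member arms was -3.15. The part of these cells in the result was not tested.

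**Figure D4:**
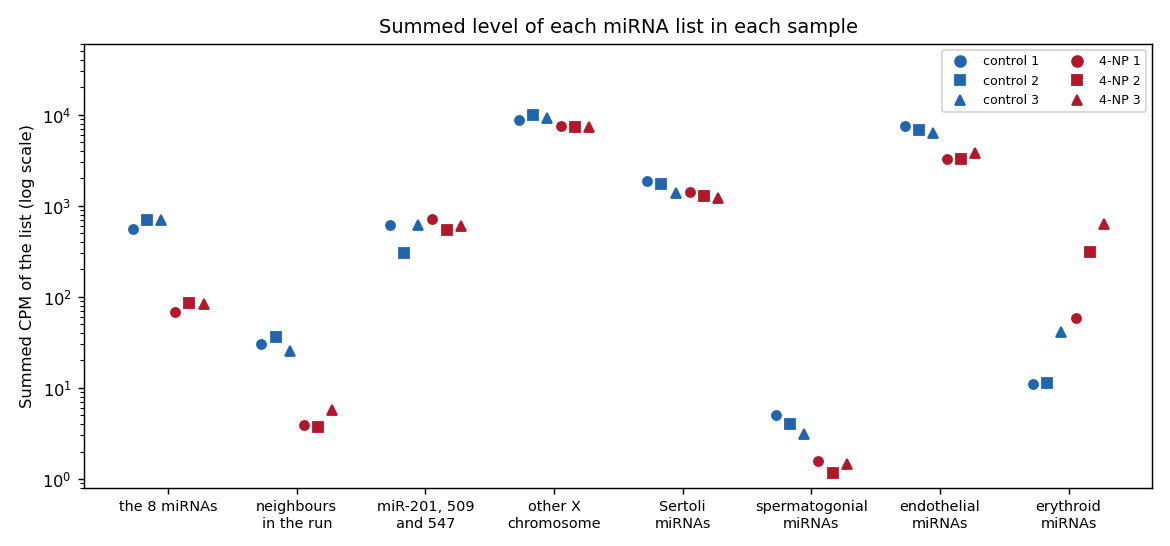
Summed CPM (log scale) of each list of miRNAs in each of the 6 samples, controls in blue and 4-NP samples in red. The 8 miRNAs and their neighbours in the run lie lower in every 4-NP sample, whereas miR-201, miR-509 and miR-547 together overlap between the groups at 302 to 720 CPM.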

How the data were processed

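Small RNA counts of 3 control and 3 4-NP samples were analysed. The authors deposited raw read counts per small RNA without normalization. HISAT2 and DESeq2 appear in the submitters' processing notes with no stated role, and the miRNA database, genome build and rule for assigning reads are not given in the sources used here. A further 6 per-sample columns, named for molecular identifiers, were not used. Treated columns were matched to samples by their number.

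Levels are CPM, relative to all mature counts of a sample. Fold changes and calls came from edgeR 4.0.16 in R 4.3.3: quasi-likelihood F test, TMM factors, filterByExpr with its default values, all mature miRNAs in 1 fit, Benjamini-Hochberg adjusted p under 0.05. Standard errors were computed from the F statistic. Alternatives were RLE factors, scaling to mature counts, DESeq2 1.42.0, other filters, a replicate block and the omission of each sample. Names, gene order and sequences came from RefSeq tables of GRCr8, in which 658 of the 673 known mature names had a match. Identities came from global alignments in Biopython 1.88. The procedure was tested on simulated data. The members, lists and tests were chosen with earlier results of these data known. Named were all members, X-linked relatives, miRNAs sharing a seed, marker lists and the 5 miRNAs most like the summed members over the 6 samples (mean of at least 20 reads, log2(CPM + 1)).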

Additional observations from a re-analysis of the deposited data

How the results depend on the processing

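All 12 tested member arms kept a negative log2 fold change under every setting that tested them, and their median lay between -3.38 and -3.15. With at least 10 counts in every sample, 8 of them were tested. The total of called miRNAs, 70 lower and 41 higher, was 67 and 47 with scaling to mature counts, 70 and 45 with RLE factors, 72 and 58 with DESeq2, and 51 to 66 and 29 to 42 when 1 sample was left out. Same-numbered samples did not deviate together (r of -0.30, -0.27 and -0.02 across miRNAs). The labels do not say whether they share a culture or animal, and these correlations cannot decide it. With a replicate block 56 were called lower and 26 higher, and 0 of the other X-linked arms were called higher, though 9 had an unadjusted p under 0.05. Of the spermatogonial arms, 0 were called with that block and with DESeq2 (2 at an unadjusted p under 0.05 in each) and 2 without a filter on low counts. The neighbours in the run called lower were 4 in the main analysis, 7 without a filter and 2 with at least 10 counts in every sample. With that last filter, 2 of the wider X-linked family list were called. These filters also change which arms are tested. With 1 sample left out, the calls were 3 to 5 lower and 0 to 3 higher among the other X-linked arms and 0 to 1 among the spermatogonial ones. The change in 5p share turned its sign for rno-miR-881 (-8.50 to 4.22 percentage points), rno-miR-3580 (-1.31 to 7.03) and rno-miR-741 (-0.0761 to 0.0248). For rno-miR-741 the 5p arm had few reads, and for rno-miR-881 and rno-miR-3580 both arms had few after 4-NP. The neighbours and the spermatogonial arms were added to these settings after the data were seen. The cause of the lost calls was not tested. The 4 member arms that did not pass the filter had 0 to 13 reads per sample, and no fold change is given for them.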
